A study of Mus musculus with 4 samples.

Results

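The 9 genes described here mark the type 1 conventional dendritic cell (cDC1): Xcr1, Clec9a, Cadm1, Itgae, Tlr3, Irf8, Batf3, Naaa and Wdfy4. They were chosen by name as identity genes of cDC1, not by a measured value, but with earlier results of these data known. They are 9 of the 13071 genes in a table of all immune cells and 9 of the 12996 genes in a table of monocytes and macrophages. Their levels were followed through every annotated cell class of 2 mouse tumours, with the question of which of them were kept in migratory dendritic cells (migDC), plasmacytoid dendritic cells (pDC), monocytes and macrophages. The study transplanted the Lewis lung carcinoma line LLC or the melanoma line B16 under the skin of mice and profiled the tumours by droplet single-cell RNA sequencing on the 10x Genomics platform. The B16 library and a CITE-seq LLC library, which reads antibody tags beside RNA, came from C57BL/6J mice, and the first LLC library came from F11r fl/fl LysM-Cre- mice, which carry a floxed F11r gene and no Cre. No treatment is named in the labels. Each library was made from a pool of 3 mice and each group is 1 library, so B16 and LLC are compared without replicates, and strain and tumour cannot be told apart between the first LLC library and B16.

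cDC1 are a rare dendritic cell subset known for taking up dead cell material and presenting its antigens on MHC class I to CD8 T cells, a process called cross-presentation. Their development needs the transcription factors IRF8 and BATF3, which act together at an enhancer of Irf8. Among their surface molecules XCR1 binds the chemokine XCL1 of NK and T cells, CLEC9A binds the exposed actin of dead cells, CADM1 is an adhesion molecule that binds CRTAM, and the alpha chain CD103, the product of Itgae, pairs with integrin beta 7 to bind E-cadherin. TLR3 senses double-stranded RNA in endosomes, WDFY4 is needed for cross-presentation of cell-associated antigen, and NAAA is a lysosomal amidase of lipid amides.

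Unless another unit is named, levels are unique molecular identifiers (UMIs) of a gene per 1000000 UMIs of the cell class (CPM), with exact 95% Poisson intervals in brackets. Ratios have exact conditional binomial 95% intervals. All intervals cover counting error only, and because cells of 1 library are not replicates no test, p value or standard error is given. CPM does not correct for transcript length, so levels are compared between classes for 1 gene and not between genes. Cell names are those the authors deposited. The clusters were made from all genes, including these 9, so differences between classes are descriptions.

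The joint table held 6870 B16 cells (median 8315 UMIs) and 13021 LLC cells (median 6174 UMIs). The monocyte and macrophage table held 2297 B16, 8155 LLC and 10131 CITE-seq LLC cells, with medians of 9250, 6530 and 4546 UMIs, and none of its subsets was cDC1. Between 5 and 29 cell barcodes were shared by a pair of libraries. Clec9a had 0 UMIs in every cell of both LLC libraries, and Xcr1 had 0 in the CITE-seq LLC library. The LLC library of the joint table listed 1517 genes at 0 and only 13 genes with 1 to 9 UMIs, against 272 and 186 in B16, so a gene at 0 in a whole library may have been filtered out before deposit. No limit is read from such a 0, and 8 of the 9 genes were compared in LLC.

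Promoters from RefSeq (build GRCm38.p6, the 250 bases before the start of transcription) matched 7 of the 9 genes, with 8 promoters in all. A pair is shown because the genes differ in how far cDC1 stood above the next class, Xcr1 by 33.6-fold in B16 while Irf8 was lower in cDC1 than in pDC. They lie at chr9:123862030-123862279 (minus strand) and chr8:120736108-120736357 (plus strand). Capitals mark CG pairs, which were counted after the letters had been seen.
Xcr1: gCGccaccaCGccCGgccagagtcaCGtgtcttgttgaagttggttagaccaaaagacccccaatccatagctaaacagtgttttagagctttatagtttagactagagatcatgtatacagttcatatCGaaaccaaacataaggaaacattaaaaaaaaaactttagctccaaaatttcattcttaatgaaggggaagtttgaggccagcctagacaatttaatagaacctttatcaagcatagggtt
Irf8: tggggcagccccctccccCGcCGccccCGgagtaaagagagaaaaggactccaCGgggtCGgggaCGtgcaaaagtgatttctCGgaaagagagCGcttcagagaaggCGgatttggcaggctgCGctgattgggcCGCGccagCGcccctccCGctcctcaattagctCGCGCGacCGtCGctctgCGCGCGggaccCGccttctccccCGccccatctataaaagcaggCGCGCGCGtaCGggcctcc
The Xcr1 promoter held 5 CG pairs at 38.8% G and C, and the Irf8 promoter held 29 at 67.2%. Over 32851 mouse promoters of that length the median was 6 CG pairs (quartiles 2 and 16), and 44.4% had fewer than Xcr1 and 93.2% fewer than Irf8. Batf3, the other transcription factor, had 27, Naaa 10, a second Irf8 promoter 8, Tlr3 6, Wdfy4 5 and Clec9a 0. The windows of Batf3, Tlr3, Wdfy4 and the second Irf8 promoter precede a RefSeq start but lie inside the GENCODE bounds of the gene given below. The AP-1 site TGANTCA, the interferon-stimulated response element and the ETS-IRF composite element, searched on both strands, were in none of the 8 windows and in 6.75%, 2.98% and 2.30% of all promoters. The last 2 can overlap each other.

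On mm10 with GENCODE vM21 the 9 protein-coding genes lie apart on 7 chromosomes. Xcr1 and Cadm1 are both on chromosome 9 (123852315 to 123862029 and 47530173 to 47857637), and Tlr3 and Irf8 both on chromosome 8 (45395665 to 45411080 and 120736358 to 120756694). Clec9a is on chromosome 6 (129408862 to 129424763), Itgae on 11 (73090583 to 73147446), Batf3 on 1 (191097847 to 191108945), Naaa on 5 (92257659 to 92278170) and Wdfy4 on 14 (32959547 to 33185508). On the same strand Clec9a overlaps Clec1b and a sense-intronic gene, Irf8 overlaps the predicted protein-coding gene Gm20388 and Cadm1 overlaps Gm47198, which a strand setting cannot separate. On the opposite strand Itgae overlaps Haspin, Wdfy4 overlaps Lrrc18 and Tlr3 and Cadm1 overlap predicted genes, and whether counting used the strand is not stated in the labels.

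In cDC1 each measured gene was detected in most cells, except Cadm1 in LLC (48.6%). The annotation gave 134 cDC1 in B16 (median 18435 UMIs) and 35 in LLC (median 11862 UMIs). The chemokine receptor gene Xcr1 stood at 540.2 CPM [512-569.6] in B16 and 230.4 [188-279] in LLC, with a UMI in 81.3% and 65.7% of the cells. Per cell, Xcr1 ran from 0 through a median of 9 to 40 UMIs in B16 and from 0 through 2 to 10 in LLC. Clec9a, the dead-cell receptor gene, was at 209.6 CPM in B16, in 82.1% of cells. In naive T cells, which should lack the gene, 5 of 743 B16 cells (0.673%, median 3736 UMIs) had an Xcr1 UMI. None of the 185 LLC naive T cells (median 2455 UMIs) had one, which by a floor of 3 counts allows up to 6.26 CPM.

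The adhesion genes and the RNA sensor gene had a UMI in 70.9 to 82.8% of B16 cDC1 and in 48.6 to 82.9% of LLC cDC1. Cadm1 was at 156 CPM [141-172] in B16 cDC1 and 67.1 [45.3-95.8] in LLC cDC1, the LLC value resting on 30 UMIs. Itgae was at 255 CPM [236-276] and 221 [180.0-269.7]. Tlr3, for double-stranded RNA, was at 183 CPM [167-201] and 213 [172-259.8]. The intervals of the 2 libraries were clear of each other for Cadm1 and overlapped for Itgae and Tlr3.

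Irf8, Naaa and Wdfy4 were found in 94.3% or more of the cDC1 of each library, and Batf3 in 91.0% in B16 and 77.1% in LLC. Irf8 was at 1948 CPM [1894-2003] in B16 and 1624 [1508-1747] in LLC, with medians of 37 and 19 UMIs per cell. Batf3 was at 196 CPM [179-214] and 195 [156-240.1], the nearest to equal of the 8 genes. Naaa was at 1549 CPM [1501-1599] and 978 [888-1074], and Wdfy4 at 555 [527-585] and 378 [323-439.6]. Wdfy4 had at least 1 UMI in each of the 35 LLC cells and in 96.3% of the B16 cells.

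The label cDC1 was set beside 7 markers fixed for it (Xcr1, Clec9a, Cadm1, Itgae, Tlr3, Gcsam and Clnk), 5 of which are among the 9 genes. All 7 had UMIs in B16 cDC1 and 4 of 7 in LLC cDC1, with summed levels of 1480.2 and 732 CPM. The 4 in LLC were Xcr1, Cadm1, Itgae and Tlr3, all among the 9 genes, so there the markers are no independent check of the label. The sums cover 7 and 4 genes with UMIs and are not compared. Markers of other cells were present as well. In B16 and LLC cDC1, 9 macrophage markers summed to 704 and 1302 CPM, 5 neutrophil markers to 16.6 and 2309, 5 T cell markers to 229 and 11.2 and 6 cDC2 markers to 149.9 and 329. The part of these transcripts in the levels above was not tested.

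**Figure D1:**
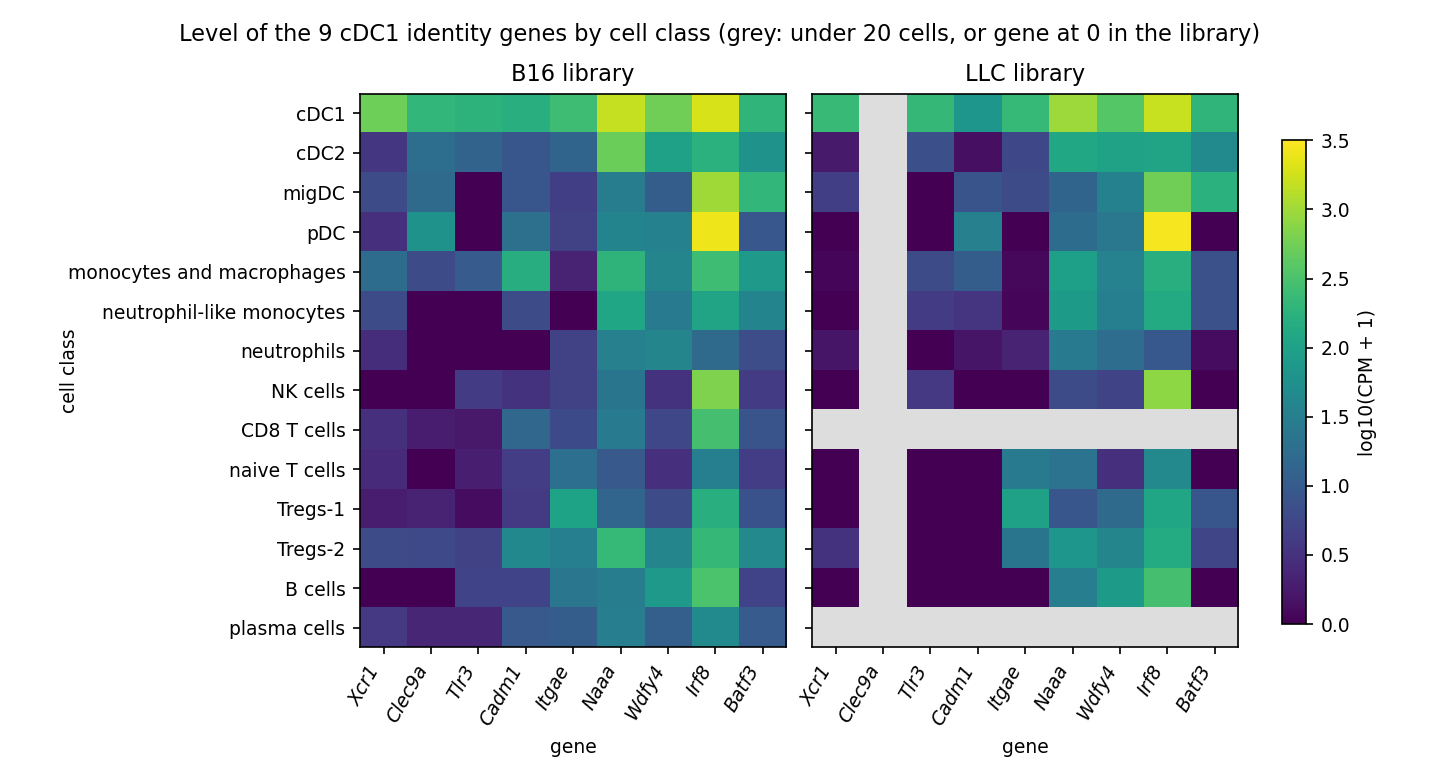
Level of each of the 9 genes (columns) in each cell class (rows) of the B16 and LLC libraries, as colour on a log scale of CPM, with grey for classes under 20 cells and for Clec9a in LLC. The cDC1 row is the highest for Xcr1, Tlr3, Itgae, Naaa and Wdfy4, and the pDC row for Irf8.

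How far cDC1 stood above the next class differed between the genes by more than an order of magnitude. Xcr1 was 33.6-fold [30.4-37.2] above the next class in B16, monocytes and macrophages, and 65.5-fold [17.7-548] above migDC in LLC. Tlr3 was 15.5-fold [10.22-24.7] and 34.2-fold [20.03-62.3] above cDC2. A ranking covered the 2836 genes with at least 20 UMIs in cDC1 of each library, so genes entered it by their counts in cDC1. It took the weaker lower bound of that ratio over classes of at least 30 cells. That leaves out the 21 LLC pDC, the next class of Cadm1 and Irf8 in LLC below. In this ranking Xcr1 was 1st, Tlr3 2nd, Wdfy4 5th and Naaa 6th, followed by Itgae at 31, Cadm1 at 88, Batf3 at 135 and Irf8 at 246. The 9 genes were chosen as cDC1 genes, so high ranks were set by that choice and nothing is read from them. Among the highest genes outside the 9 were Plet1, Sept3, Ppt1, Rab7b, Ckb, Txndc15, Shtn1, Plbd1 and Sdad1.

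The second class differed by gene. Wdfy4 was 5.49-fold and 3.70-fold above cDC2 in B16 and LLC, and Naaa 2.96-fold and 7.80-fold above cDC2. Itgae was 2.41-fold [2.12-2.74] and 2.24-fold [1.25-4.36] above Tregs-1, a regulatory T cell class at 106 and 98.8 CPM. Clec9a in B16 was 3.47-fold [2.66-4.59] above pDC. For the other 3 genes cDC1 was not set apart from the next class, which for Cadm1 in LLC rests on few UMIs. Cadm1 was 1.03-fold [0.927-1.14] the level of monocytes and macrophages in B16. In LLC it was 2.07-fold [0.729-8.08] the level of pDC, from 4 UMIs in 21 pDC, and 6.76-fold [4.53-9.73] that of monocytes and macrophages. Batf3 was 0.963-fold [0.832-1.12] and 1.13-fold [0.836-1.52] the migDC level, and Irf8 was lower than in pDC, at 0.756-fold and 0.567-fold.

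A large part of all transcripts of some genes came from very few cells. The 134 B16 cDC1 were 1.95% of the cells and held 3.49% of all UMIs, but 68.9% of the Xcr1, 60.8% of the Clec9a, 55.8% of the Tlr3 and 47.7% of the Itgae UMIs. They held 43.4% of the Wdfy4 and 31.4% of the Naaa UMIs, and only 19.1% of Irf8, 12.98% of Batf3 and 6.68% of Cadm1. The 35 LLC cDC1, 0.269% of the cells, held 85.8% of the Xcr1 and 58.2% of the Itgae UMIs, 16.8% of Tlr3 and 3.64% to 10.19% of the other 5.

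In migDC, mature dendritic cells on their way to lymph nodes, the transcription factor genes were kept and every other gene was at 10.5% of the cDC1 level or less. A gene was counted as kept in a class when its level was at least 20% of the cDC1 level of the same library and the lower bound of its interval lay above the background, the lower level of naive T cells and neutrophils. By that rule 2 of 9 genes were kept in B16 migDC and 2 of 8 in LLC migDC, Batf3 and Irf8 in both. Of all genes judged, 57.9% were kept in B16 migDC and 64.7% in LLC migDC. The genes were chosen as high in cDC1, so a low share relative to cDC1 was set by that choice and nothing is read from it. The median of the 9 genes was 1.82% of the cDC1 level in B16 and 5.61% over 8 genes in LLC.

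Batf3 in migDC was at 204 CPM [181-228] in B16 and 172 [139.9-210.0] in LLC, 104% [89.6-120.2] and 88.5% [65.7-119.6] of the cDC1 level. Irf8 was at 1002 CPM [951-1055] and 556 [496-620.4], 51.4% [48.5-54.5] and 34.2% [29.9-39.1] of the cDC1 level. The intervals of Batf3 hold equal levels in both classes, while those of Irf8 lie wholly below 100%.

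Xcr1 in migDC was at 5.50 CPM in B16 (8 UMIs) and 3.52 in LLC (2 UMIs), 1.02% and 1.53% of cDC1. Tlr3 had 0 UMIs in both, which by a floor of 3 counts allows up to 2.06 and 5.28 CPM. Itgae reached 1.35% and 2.38%, Naaa 1.82% and 1.26%, Cadm1 4.85% and 10.5%, Wdfy4 1.73% and 8.84%, and Clec9a 7.22% in B16. These cells were migDC by their own markers, since Ccr7, Fscn1, Cacnb3, Ccl22, Il4i1 and Socs2 summed to 5667 and 7408 CPM there and to 21.4 and 38.0 in cDC1. T cell markers were at 506 CPM in B16 migDC and 19.3 in LLC migDC, and 8.97% and 5.68% of the migDC had a doublet score in the top 6% of their library.

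In pDC, which make type I interferon, Irf8 was the gene kept in both tumours. Irf8 was at 2575 CPM [2478-2675] in B16 and 2862 [2572-3177] in LLC, 132% [126-139] and 176% [155-200.4] of the cDC1 level, and every pDC of both libraries had an Irf8 UMI. Clec9a was the second gene kept in B16, at 60.5 CPM [46.4-77.5] or 28.9% [21.8-37.6] of cDC1, in 35.1% of the 114 cells, while no naive T cell or neutrophil of B16 had a Clec9a UMI. In LLC, with 21 pDC, the second gene was Cadm1 at 32.4 CPM, which rests on 4 UMIs (48.3% of cDC1 [12.4-137]). In B16 pDC Cadm1 was at 11.9% [7.07-18.8] and not kept.

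The count was thus 2 of 9 in B16 and 2 of 8 in LLC, beside 66.2% and 62% of all genes. Batf3, kept in migDC, was at 7.80 CPM in B16 pDC, 3.98% [1.71-7.90] of cDC1, and had 0 UMIs in LLC pDC. Tlr3 had 0 UMIs in pDC of both, allowing up to 2.93 CPM in B16 and 24.3 in LLC. Naaa was at 37.1 and 16.2 CPM and Wdfy4 at 33.2 and 24.3, with 2 and 3 UMIs behind the LLC values. The 7 pDC markers, Siglech and Tcf4 among them, summed to 9181 and 9504 CPM in this class. In B16, 23.7% of pDC had a top doublet score.

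**Figure D2:**
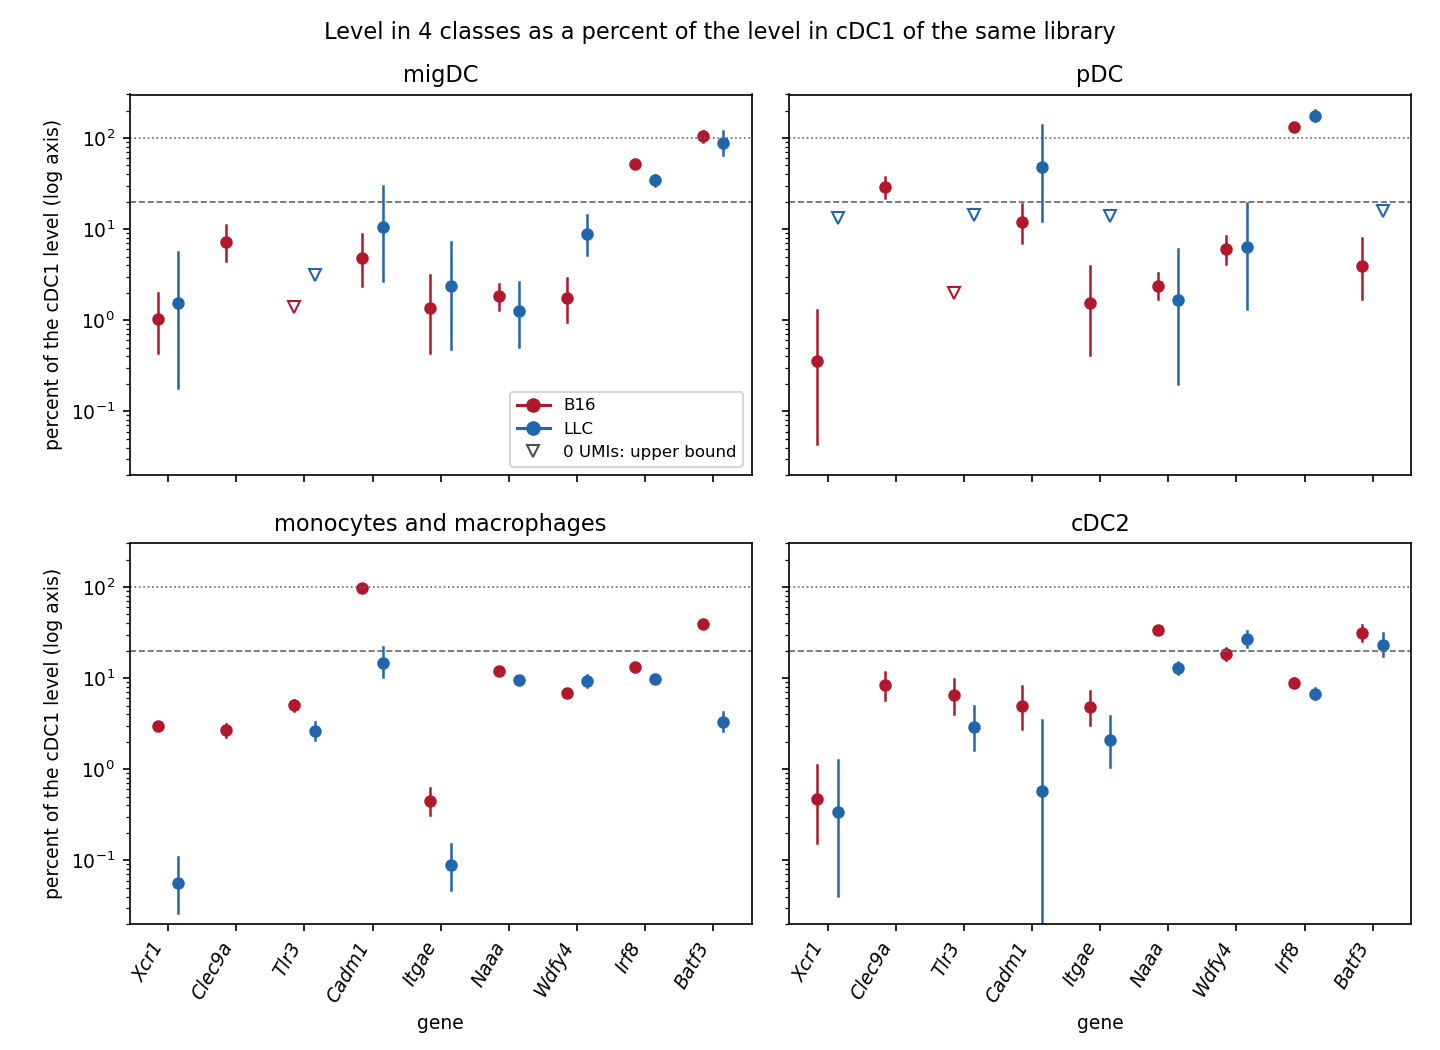
Level of each gene in migDC, pDC, cDC2 and monocytes and macrophages as a percent of its level in cDC1 of the same library (log axis), with 95% counting intervals for B16 and LLC. Irf8 in pDC, Batf3 in migDC and Cadm1 in B16 monocytes and macrophages lie near or above 100%.

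cDC2, the other conventional subset, kept intracellular genes and no surface gene. In B16 cDC2 Naaa was at 33.8% [31.5-36.2] and Batf3 at 31.2% [25.3-38.1] of cDC1, and in LLC cDC2 Wdfy4 was at 27.0% [22.2-32.9] and Batf3 at 23.3% [17.5-31.1]. That is 2 of 9 and 2 of 8, beside 65.5% and 77.4% of all genes. Naaa in LLC (12.8%) and Wdfy4 in B16 (18.2% [15.6-21.2]) were under the 20% mark. Irf8 was at 174 CPM in B16 cDC2 and 109 in LLC cDC2, 8.92% and 6.74% of cDC1, a smaller fraction than in migDC or pDC, or in NK cells, where Irf8 was at 666 and 799.5 CPM.

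Monocytes and macrophages held Cadm1 and Batf3 in B16 and far less of both in LLC. In B16, with 2742 cells, Cadm1 was at 152 CPM [148-156] or 97.1% [87.7-108] of the cDC1 level, and Batf3 at 77.6 CPM [74.6-80.6] or 39.5% [35.9-43.6]. In LLC, with 9194 cells, the same genes were at 9.93 CPM and 6.48 CPM, 14.8% and 3.33% of cDC1. So 2 of 9 genes were kept in B16 and 0 of 8 in LLC, beside 78.7% and 83.7% of all genes. The kept count is a rule of size and was not tested. With cells thinned to 2000 UMIs, B16 Cadm1 was at 56.6% of the cDC1 level, and with the mean of CPM over cells LLC Cadm1 was at 9.66%.

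The other 7 genes were low in this class in both tumours. Irf8 was at 256 CPM in B16 and 159.6 in LLC, 13.2% and 9.83% of cDC1. Naaa reached 12.01% and 9.56%, Wdfy4 6.88% and 9.28%, and Tlr3 5.005% and 2.61%. Xcr1 was at 16.1 CPM [14.8-17.5] in B16, 2.98% of cDC1, and at 0.1298 CPM in LLC (10 UMIs), 0.0563% of cDC1. Itgae, which lymphocytes also carry, was at 0.446% and 0.0879%, the lowest of the genes in B16, and Clec9a was at 2.67% in B16.

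Within B16 the Cadm1 and Xcr1 transcripts lay mostly in 1 of 10 monocyte and macrophage clusters. TAM-3, with 1292 B16 cells (median 15738 UMIs) and 7 LLC cells, had Cadm1 at 234 CPM [228-241] in 76.0% of cells, 149.9% [135-167] of the cDC1 level. Batf3 was at 91.3 CPM or 46.6% of cDC1, and these were the 2 of 9 genes kept there, beside 76.9% of all genes. Xcr1 was at 25.2 CPM [23.1-27.4], with 532 of the 538 Xcr1 UMIs of B16 monocytes and macrophages, in 231 cells (17.9%). Imm TAM-3, the next largest cluster with 637 B16 cells, had Xcr1 at 0.346 CPM and Cadm1 at 13.8 CPM. Among the other B16 clusters Cadm1 ran from 0 to 18.1 CPM and Xcr1 from 0 to 2.26 CPM.

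The TAM-3 cells did not hold the 9 genes in the proportions of cDC1. As a percent of cDC1, Cadm1 was at 149.9, Batf3 at 46.6, Irf8 at 13.4, Naaa at 9.17, Wdfy4 at 7.20, Tlr3 at 5.80, Xcr1 at 4.66, Clec9a at 3.41 and Itgae at 0.222, the last from 12 UMIs. Without the 49 TAM-3 cells of top doublet scores (3.79%), Xcr1 was at 25.5 CPM and Cadm1 at 237. The 231 cells with an Xcr1 UMI had Cadm1 at 298 CPM, Batf3 at 121, Naaa at 150, Wdfy4 at 44.9 and Clec9a at 12.7. The 1061 without one had these genes at 217, 83.4, 140, 38.7 and 5.68. Irf8 and Tlr3 were lower in the cells with an Xcr1 UMI, at 249 and 8.16 against 265 and 11.3. Itgae was at 0.906 and 0.478, from 4 and 8 UMIs, with overlapping intervals. The median UMIs per cell were 16690 and 15429. At an equal 2000 UMIs per cell 3.98% of TAM-3 had an Xcr1 UMI, against 53.4% of B16 cDC1 and 0.147% of B16 naive T cells. In the annotation of B16 alone these cells carried several names, and Cadm1 was at 236 CPM in the 671 named Mac-1, 193 in the 290 named Mac-2 and 272 in the 288 named Mac-Prolif, with Xcr1 at 23.0, 13.7 and 38.1 CPM. With 1292 cells of 1 tumour against 7 of the other, the cluster and the library cannot be told apart. The 7 LLC cells had 11 Cadm1 UMIs (114 CPM) and no Xcr1 UMI.

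The remaining clusters kept Naaa, Batf3 or Cadm1, or none of the genes. In B16, Naaa was kept in Imm TAM-3 (20.7%), in TAM Lyve1 (29.3%, 42 cells) and in TAM-2 (38.2%, 22 cells), and Batf3 in Imm TAM-3 (32.2%), Monocytes (34.6%) and TAM-2 (51.9%). In LLC, Cadm1 was kept in TAM-2 (44.8%, 30.05 CPM) and Prolif TAM (44.0%, 29.6 CPM), and Naaa in TAM Lyve1 (25.6%, 23 cells). Of all genes, 70.6% were kept in B16 Imm TAM-3, 57.8% in TAM Lyve1, 70.4% in Monocytes and 58.6% in TAM-2, and in LLC 80.2% in TAM-2, 81.4% in Prolif TAM and 66.2% in TAM Lyve1. None of the 9 genes was kept in B16 Imm TAM-1, Imm TAM-2 and Imm TAM-4, beside 41.1%, 55.9% and 58.5% of all genes. None of 8 was kept in LLC Imm TAM-1 to Imm TAM-4, beside 78.8%, 77.1%, 77.8% and 81% of all genes, nor in Monocytes and TAM-1, beside 79.5% and 81.1%.

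The monocyte and macrophage table, with its own subset names, added the CITE-seq LLC library and showed which subset held each gene. Its names TAM-1 to TAM-4 are not those of the joint table. Cadm1 was at 224 CPM in the 941 B16 cells of TAM-1, 20.7-fold [17.3-25.1] above the rest of B16, and Xcr1 at 20.8 CPM, with 282 of 288 UMIs. TAM-1 had 2 LLC and 4 CITE-seq LLC cells. In the LLC libraries Cadm1 was highest in TAM-4 (13.1 CPM in LLC, 22.9 in CITE-seq LLC) and LLC TAM Hypoxic (16.1 and 19.0), with Immature TAM-1 at 22.7 in CITE-seq LLC. Xcr1 was at most 0.782 CPM in every other subset of at least 50 cells.

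Tlr3, an interferon-inducible gene, had its highest level in Mono/TAM IFN in all 3 libraries, at 27.8 CPM in B16, 24.2 in LLC and 19.0 in CITE-seq LLC. That was 3.60-fold [2.46-5.15], 5.60-fold [4.25-7.30] and 3.67-fold [2.84-4.71] above the rest of each library, and no other subset of at least 50 cells passed 10.7 CPM. Batf3 was higher in Monocytes than in the rest of both LLC libraries, 4.59-fold [3.59-5.81] at 22.9 CPM in LLC and 2.65-fold [2.04-3.39] at 24.7 in CITE-seq LLC. Monocytes were not its highest subset in CITE-seq LLC, where Batf3 in Immature TAM-1 was at 63.0 CPM (25 UMIs, 76 cells). The 25 LLC cells of Immature TAM-1 had Batf3 at 42.0 CPM, from 8 UMIs. In B16 Batf3 was at 70.8 CPM in Monocytes, 73.6 in Immature TAM-1 and 92.3 in TAM-1. Immature TAM-1 had Naaa at 388 CPM in B16 and 194 in CITE-seq LLC, and Irf8 at 306 and 549. Wdfy4 was at 51.2, 44.7 and 42.5 CPM in Monocytes and at 6.91, 17.5 and 27.7 in Mono/TAM Hypoxic of B16, LLC and CITE-seq LLC.

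**Figure D3:**
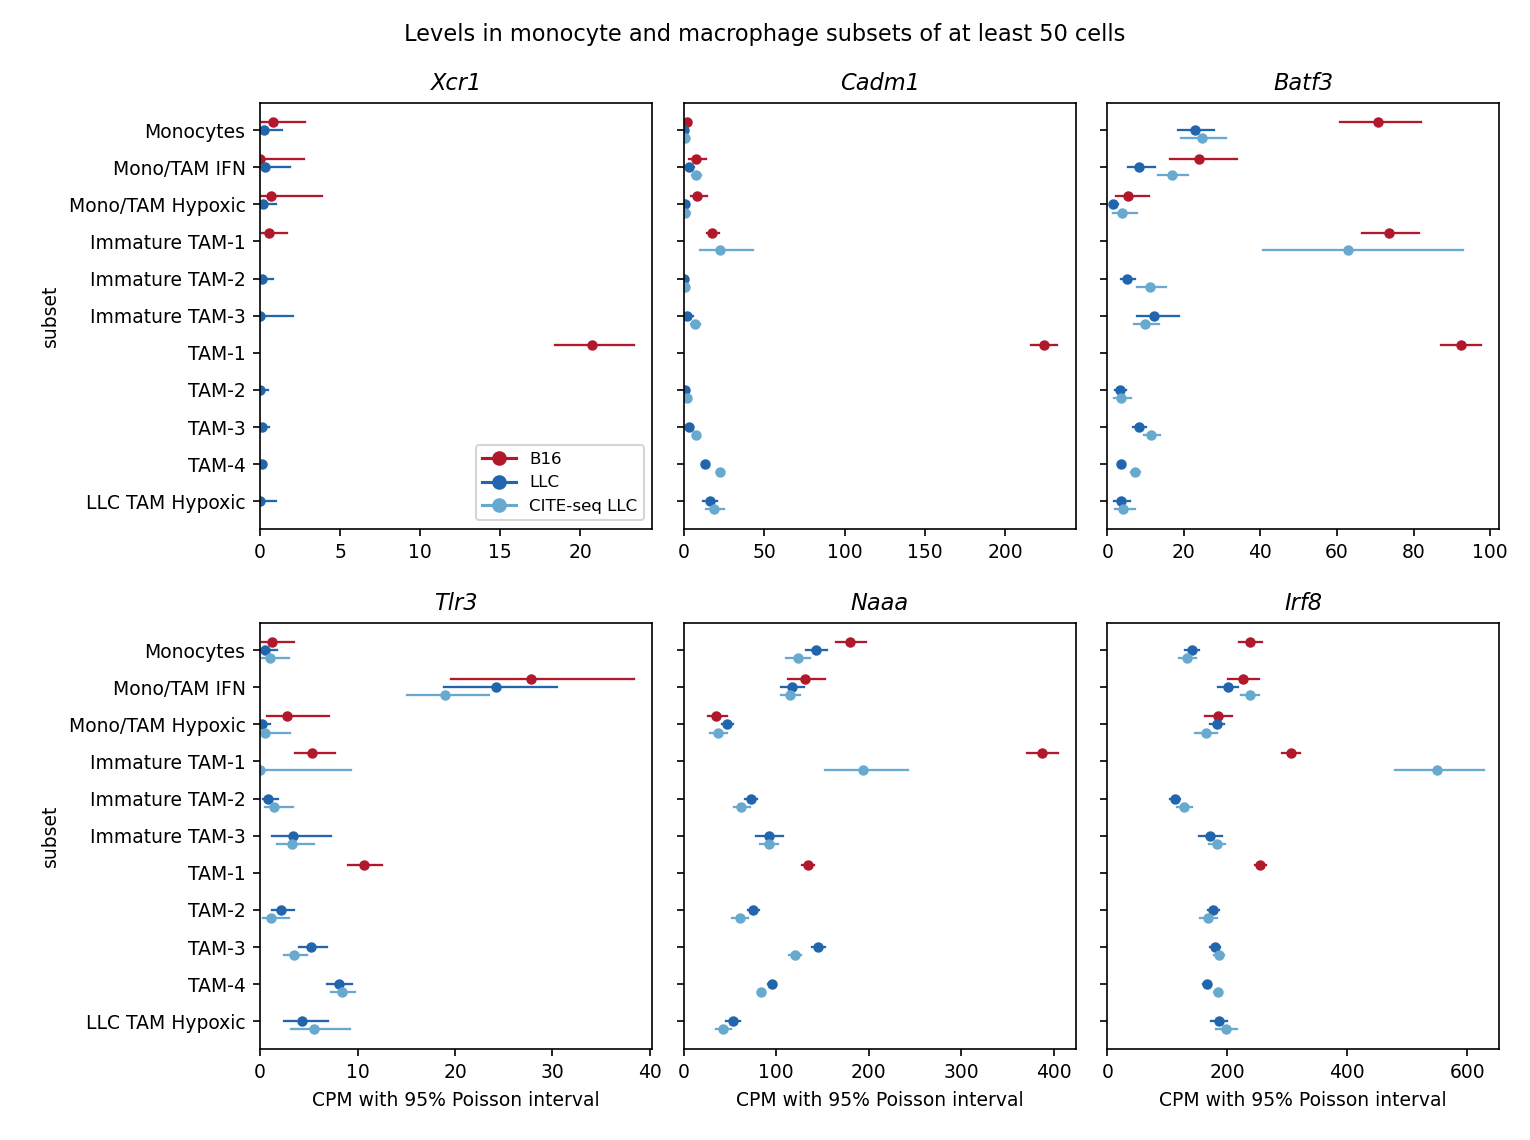
Level in CPM with 95% Poisson intervals (horizontal) in monocyte and macrophage subsets of at least 50 cells (vertical), 1 panel a gene, coloured by library. TAM-1 of B16 stands apart for Cadm1 (224 CPM) and Xcr1 (20.8 CPM), and Mono/TAM IFN is the highest subset for Tlr3 in all 3 libraries.

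Antibody tags for 3 of the proteins were read in the 10131 CITE-seq LLC monocytes and macrophages. The XCR1 tag had a mean of 0.0687 counts per cell, CD370 (the CLEC9A protein) 0.133 and CD103 0.145, ranks 141, 117 and 111 of 172 tags. The 9 isotype control tags, which measure unspecific binding, had means from 0.0248 to 0.8895 with a median of 0.0549. All 3 tags lay above the median and inside the range of the controls, and CD370 and CD103 exceeded 7 of the 9. The highest control had 1868 of its 9012 counts in 1 cell. Whether the tags hold signal beyond unspecific binding cannot be told from these values. The tag for integrin beta 7, the partner of CD103, was at 0.920 and that for CD11c at 8.65. No cDC1 were in that table, so the tags have no positive reference here.

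Between the tumours, Xcr1, Cadm1 and Naaa differed in cDC1 by a rule of size, each higher in B16. A gene was called at 1.5-fold with at least 20 UMIs over both libraries, which is a rule of size. By it 3 of 8 genes were higher in B16 cDC1 and 0 lower, beside 21.4% higher and 11.1% lower of all 8081 genes measured, and the median log2 ratio was 0.41 over the 8 genes and 0.08 over all genes. Xcr1 was 2.34-fold [1.92-2.89], Cadm1 2.33-fold [1.60-3.496] and Naaa 1.58-fold [1.44-1.75] higher in B16. Wdfy4 was at 1.47 [1.25-1.73] and Irf8 at 1.199 [1.11-1.298]. Itgae at 1.15 [0.931-1.44], Batf3 at 1.01 [0.801-1.28] and Tlr3 at 0.863 [0.691-1.09] had intervals that include equal levels.

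These ratios depend on which cells count as cDC1. Of the 134 B16 cells, 114 were cDC1, 19 cDC2 and 1 Mac-Prolif in the annotation of B16 alone. The 19 had Xcr1 at 7.83 CPM, Irf8 at 118 and Naaa at 316, against 643, 2297 and 1785 in the 114, and their Wdfy4 was at 178 against 631. With only the 114 cells 4 of 8 genes were called, Wdfy4 at 1.67 being added, and Xcr1 was at 2.79. With median-of-ratios scaling Naaa was at 1.49 and no longer called. With cells thinned to 2000 UMIs, which leaves few UMIs in LLC, Tlr3 turned from 0.863 to 2.29. No second annotation of the LLC cells was used here. Neutrophil markers summed to 16.6 CPM in B16 cDC1 and 2309 in LLC cDC1, macrophage markers to 704 and 1302, and 10.4% and 8.57% of these cells had top doublet scores, and their part in the ratios was not tested.

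In monocytes and macrophages 7 of 8 genes were higher in B16 and 0 lower, beside 11.9% higher and 11.9% lower of all genes. Xcr1 was 124-fold [66.9-260.0], Cadm1 15.3-fold [14.2-16.5], Batf3 11.97-fold [10.9-13.2] and Itgae 5.84-fold [3.14-11.4] higher, the last from 38 and 15 UMIs. Naaa (1.99), Tlr3 (1.65) and Irf8 (1.61) were nearer to equal and Wdfy4 was at 1.09. In the separate monocyte and macrophage table, with 2297 B16 cells, 7 of 8 genes were again higher than in LLC, beside 11.9% of all genes higher and 11.8% lower, with Cadm1 at 21.5-fold [19.3-24.0], Batf3 at 12.3-fold, Itgae at 5.71-fold and Naaa at 1.94-fold. In that table, against the CITE-seq LLC library, made from mice of the same strain as B16, 4 of 7 genes were higher, beside 11% of all genes higher and 9.93% lower. Cadm1 was then 9.74-fold [8.99-10.6], Batf3 7.49-fold [6.82-8.24] and Naaa 2.06-fold higher, Itgae was at 1.67 [0.822-3.34], Tlr3 at 1.41, Irf8 at 1.40 and Wdfy4 at 0.886. Both comparisons share the B16 library and pool subsets in unequal numbers, TAM-1 being almost only in B16. Within subsets, against CITE-seq LLC, Cadm1 was at 0.780 [0.394-1.76] in Immature TAM-1 and 0.997 [0.438-2.07] in Mono/TAM IFN. Cadm1 was judged in no other subset. In those subsets Batf3 was at 1.17 [0.780-1.83] and 1.42 [0.909-2.18], and in Monocytes at 2.87 [2.17-3.82]. Irf8 was at 0.558 [0.484-0.646] in Immature TAM-1 and 1.78 [1.56-2.03] in Monocytes. The part of subset numbers in the pooled ratios was not tested. Batf3 lies on chromosome 1, 19.6 Mb from the floxed F11r gene, and its ratio against the LLC library without that allele is the 7.49 above. The LLC libraries also differ in depth and subset numbers, and any part of the allele in the Batf3 ratios was not tested.

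**Figure D4:**
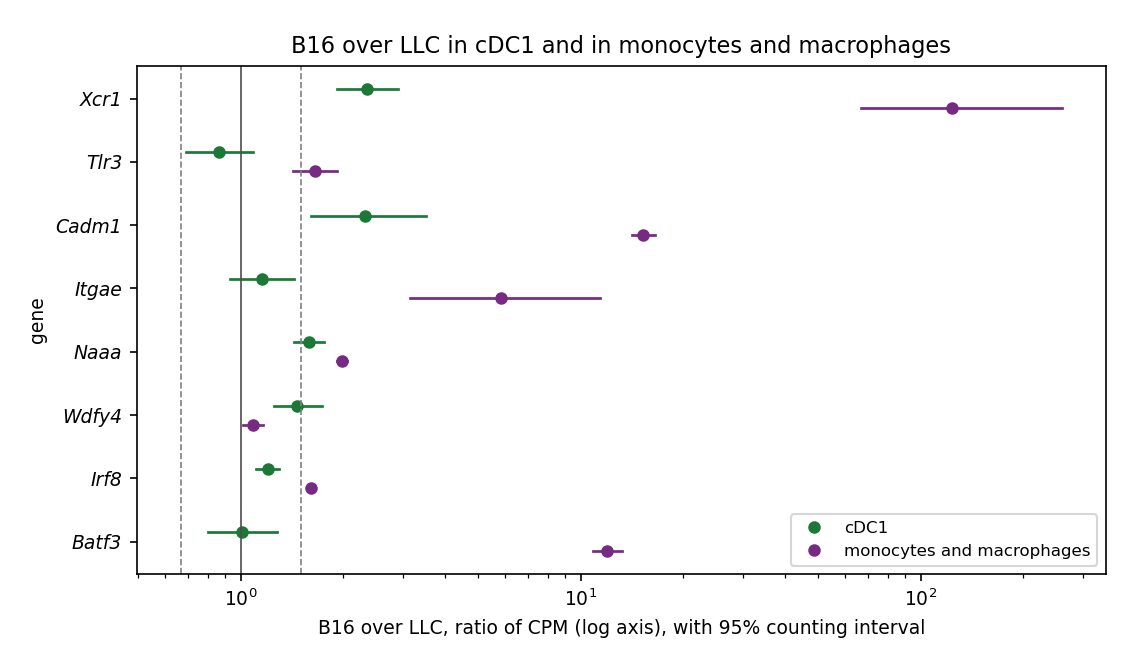
Ratio of B16 to LLC levels (log axis) with 95% counting intervals for each gene in cDC1 and in monocytes and macrophages. Cadm1 and Batf3 in monocytes and macrophages are 15.3-fold and 11.97-fold higher in B16, while Batf3 in cDC1 is at 1.01.

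In the other dendritic cell classes the calls between tumours rested in part on few UMIs. In cDC2 4 of 6 measured genes were higher in B16 and 0 lower. There Naaa was 4.18-fold [3.69-4.75], Itgae 2.65-fold [1.27-5.81], Tlr3 1.90-fold [0.963-3.85] and Irf8 1.59-fold [1.35-1.87] higher in B16, beside 9.48% of all genes higher and 16.3% lower. In migDC, Irf8 was 1.80-fold [1.60-2.04] and Naaa 2.29-fold [1.02-6.05] higher, beside 15% of all genes. Wdfy4 in migDC was at 0.288 [0.134-0.607], from 14 and 19 UMIs, beside 12.7% of all genes lower. Batf3 in migDC was at 1.18 [0.937-1.501] and Irf8 in pDC at 0.8995 [0.805-1.01]. In pDC, Naaa at 2.29 [0.591-19.6], from 38 and 2 UMIs, and Cadm1 at 0.571 [0.190-2.31], from 19 and 4, passed 1.5-fold with intervals that include equal levels, beside 21.6% of all genes higher and 20.2% lower. Outside dendritic cells and macrophages, Naaa was 3.97-fold [1.40-15.6] higher in B16 NK cells, from 29 and 4 UMIs, beside 15.5% of all genes higher and 9.31% lower. In neutrophil-like monocytes Batf3 was 5.68-fold [2.17-12.6] higher, from 7 and 49 UMIs, beside 26.6% higher and 27.6% lower. Tlr3 had 0 UMIs in the 31 B16 cells and 24 in LLC, an interval of 0 to 6.61 for the ratio, so no difference was detectable. In the cluster named Tregs-2, where macrophage markers summed to 7901 and 7169 CPM and T cell markers to 2063 and 1357, Batf3 was 9.86-fold [2.67-82.4] and Naaa 3.18-fold [2.21-4.72] higher in B16, beside 17.7% of all genes.

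At equal depth few single cells outside cDC1 held several of the genes at once, while at full depth many did. With each cell thinned to 2000 UMIs, 83.5% of 133 B16 cDC1 and 74.3% of 35 LLC cDC1 had a UMI of at least 3 of the 9 genes. Among other classes the share was 9.90% in TAM-3, 5.99% in monocytes and macrophages, 6.67% in cDC2, 2.61% in migDC and 1.75% in pDC of B16. In LLC it was 0.519% in monocytes and macrophages, 2.24% in cDC2 and 0 in migDC and pDC. Thinning left out 1 B16 cDC1 and 39 B16 monocytes and macrophages, and an LLC cell can hold at most 8 of the genes. Without thinning, at least 3 genes were found in 97.8% of cDC1, 77.8% of TAM-3, 51.7% of monocytes and macrophages, 59.6% of cDC2, 25% of migDC and 24.6% of pDC in B16. In LLC the unthinned shares were 97.1% in cDC1, 14.7% in monocytes and macrophages, 23.2% in cDC2, 12.5% in migDC and 0 in pDC. Without thinning, 1080 of 6736 B16 cells (16.03%) and 297 of 12986 LLC cells (2.29%) outside cDC1 had a UMI of at least 4 genes, and 32 of 6304 and 3 of 11261 after thinning.

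**Figure D5:**
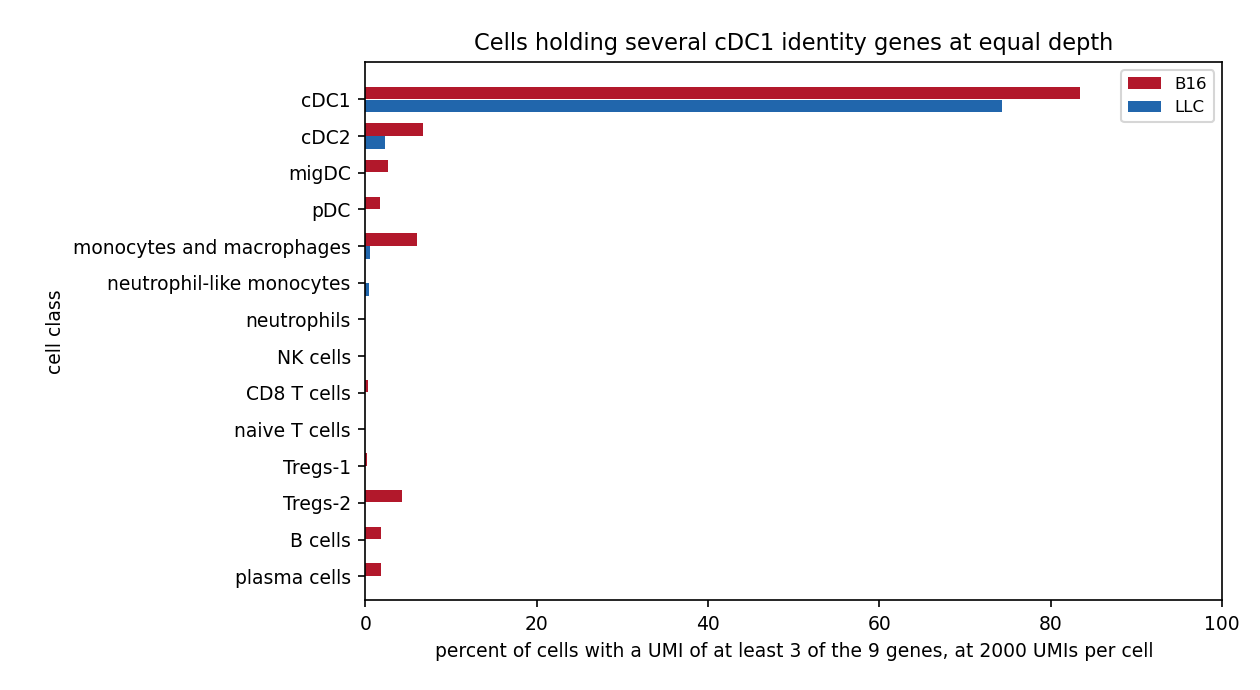
Percent of cells with a UMI of at least 3 of the 9 genes (horizontal), each cell thinned to 2000 UMIs, by cell class (vertical) and library. cDC1 are at 83.5% in B16 and 74.3% in LLC, and the other classes stay under 10%.

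Genes with the most similar pattern across classes were sought for each of the 8 genes measured in both libraries, by the lower of 2 Pearson correlations of log2(CPM + 10) over 14 B16 and 11 LLC classes among 2835 genes. The 2835 were genes with at least 20 UMIs in cDC1 of each library. The classes share a library and its free RNA, and the values are descriptions. Xcr1 and Tlr3 were each other's nearest gene (r of 0.948 in B16 and 0.967 in LLC), followed for both by Plet1 and Sept3. Batf3 was nearest to Cst3 (0.934 and 0.948), then Arhgap22 and Tspan33, and Naaa to Slamf8 (0.918 in both), Pak1 and Ifi205. Wdfy4 was nearest to Acox3 (0.889 and 0.870), BC028528 and Naaa, Cadm1 to Gatm (0.902 and 0.836), Anpep and Rab7b, and Irf8 to Acadl (0.833 and 0.832), Rtcb and Irak1. Itgae had the loosest neighbours, Ppp1r11 (0.720 and 0.820), Lrba and Cyb5a.

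A list of 18 further genes known from cDC1 was set beside the 9. They were chosen as cDC1 genes, so a higher level in cDC1 than in other classes was set by that choice and nothing is read from it. In cDC1 over cDC2, 14 of 16 measured were higher and 0 lower in B16, beside 19.9% of all genes higher and 15.6% lower, and 10 of 10 higher in LLC, beside 13.2% higher. The B16 ratios were 14.6 for Snx22, 11.95 for Plet1, 10.9 for the lysosomal thioesterase gene Ppt1, 8.12 for the inhibitory receptor gene Btla and 7.66 for Rab7b, while Ifi205 (1.36) and Qpct (0.791) were not called. In cDC1 over migDC, 15 of 16 were higher in B16 and 9 of 10 in LLC, beside 35.5% and 29% of all genes. Between tumours the list split, with 3 of 11 higher in B16 cDC1 (Ifi205 3.09, Sept3 1.93, Ppt1 1.68) and 3 lower (Plet1 0.383, Btla 0.602, Qpct 0.629).

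Of 16 regulators of dendritic cell fate, 3 were higher and 9 lower in cDC1 than in cDC2 of B16, beside 19.9% and 15.6% of all genes, and 3 higher and 7 lower of 15 in LLC, beside 13.2% and 27.4%. The growth factor receptor gene Flt3 was 4.31-fold and 3.42-fold higher in B16 and LLC and Id2, a regulator cDC1 need, 2.33-fold and 2.19-fold. In B16, Zeb2 was at 0.208, the cDC2 factor Irf4 at 0.235, the pDC factor Tcf4 at 0.255 and Klf4 at 0.332 of the cDC2 level.

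Of 14 genes of cross-presentation and MHC class I, 2 were higher and 1 lower in B16 cDC1 than in cDC2, beside 19.9% and 15.6% of all genes, and 6 higher and 1 lower in LLC, beside 13.2% and 27.4%. Rab43, needed for cross-presentation, was 2.35-fold and 3.14-fold higher. In LLC the MHC class I regulator Nlrc5 was 3.46-fold, the immunoproteasome gene Psmb9 2.90-fold, Tap2 2.69-fold, the transporter gene Tap1 2.36-fold and Psmb8 1.83-fold higher, and in B16 Psmb9 was 1.52-fold higher. The NADPH oxidase gene Cybb was at 0.166 and 0.190 of the cDC2 level.

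The partners of the 9 genes' products were mostly in other cells. Xcl1, the ligand of XCR1, was at 1575 CPM in B16 NK cells and 1589 in LLC NK cells, at 281 and 167 in naive T cells, and at 1.58 and 2.24 in cDC1. Crtam, for the partner of CADM1, was at 63.4 and 43.2 CPM in NK cells and had 0 UMIs in cDC1 of both. Cdh1, for E-cadherin, was at 87.8 and 114 CPM in pDC, 47.8 and 88.1 in cDC2 and 8.30 and 6.71 in cDC1. Within cDC1 itself were Itgb7, the chain that pairs with CD103, at 193 and 161 CPM, and Ticam1, the adaptor of TLR3, at 20.2 and 17.9.

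Of the signals by which cDC1 act on T cells, Cxcl9 was at 229 and 125 CPM in cDC1 and Ccl5 at 118 and 8.95, the last from 4 UMIs. All 5 T cell markers were also higher in B16 cDC1 than in LLC cDC1, beside 21.4% of all genes. The part of T cell RNA in the Ccl5 level was not tested. Il12b, for a subunit of interleukin 12, was at 3.56 and 2.24 CPM in cDC1 and at 509 and 396 in migDC, the mature class that kept Batf3 and Irf8.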

How the data were processed

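Tumours of 3 mice were pooled for each library, per the labels. Cell Ranger and mm10 are named in the submitters' processing notes, without a version, gene models or strand setting. Raw UMI counts per gene and cell were deposited by the authors, with tag counts for the CITE-seq LLC cells, after filtering whose cut-offs are not given. The annotation columns deposited by the authors gave cell names, and their 25 joint clusters were put into 14 classes, with 10 monocyte and macrophage clusters in 1.

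Counts were summed per class and library and set over the class total (CPM). A gene was judged with at least 20 UMIs over both sides, kept at 20% of the cDC1 level and called at 1.5-fold. Genes at 0 in a whole library were not compared. Of the files on B16 alone only the annotation was used. Doublet scores came from scanpy 1.11.5 (Scrublet); all cells were retained, and an alternative left out the highest 6% of each library. Other alternatives changed the summing, scaling, thresholds, depth and annotation. Named genes are the 9, the 3 most similar to each, the 10 most specific (1 of which is not reported here) and list members by size. Python 3.11.15, numpy 2.4.6, scipy 1.17.1, pandas 2.3.3 and matplotlib 3.10.9 were used. The ratio and kept rules were tested on simulated Poisson counts. These hold no variation between cells beyond counting error, so the simulation covers counting error only. The 9 genes and all lists were chosen with earlier results of these data known.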

Additional observations from a re-analysis of the deposited data

Results flagged for a closer look

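Among the 9 genes, Irf8, Naaa and Wdfy4 differed between B16 and LLC in opposite directions in 2 cell classes, by intervals clear of 1 on either side. For each gene the highest and lowest of the ratios with such intervals are given. The share of all genes with such a pair was not computed, so nothing is read from the number of genes. The differences between classes were not tested. Irf8 was higher in B16 migDC, 1.80-fold [1.60-2.04], and lower in B16 NK cells, at 0.832 [0.748-0.927], which is short of the 1.5-fold rule. Naaa was 4.18-fold [3.69-4.75] higher in B16 cDC2 and at 0.412 [0.192-0.957] in naive T cells, from 26 and 10 UMIs. Wdfy4 was 2.30-fold [1.31-3.89] higher in B16 neutrophils, from 20 and 57 UMIs, and at 0.288 [0.134-0.607] in migDC, from 14 and 19 UMIs. By the 1.5-fold rule 30.9% of all genes were higher in B16 neutrophils and 15.3% lower. Each rests on 1 library per tumour, and the intervals cover counting error only.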

How the results depend on the processing

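No paired analysis was possible because each group is 1 library. For the same reason no library could be left out. Of the recomputed counts, 46 stayed within 1.5 times the reported value and 16 moved. Of the recomputed percents and ratios of single genes, 243 stayed inside the interval of the main value and 73 moved. No ratio called at 1.5-fold changed direction. Ratios not called were not checked for that, and the ratio of Tlr3 in cDC1 turned on thinning, as given below. The annotation of B16 alone could be tried for B16 only, and TAM-3 has no LLC value to recompute (7 cells).

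The 20% mark decides most moved counts. At 50% of the cDC1 level, 1 gene was kept in B16 pDC (Irf8), B16 monocytes and macrophages (Cadm1), TAM-3 (Cadm1), LLC migDC (Batf3) and LLC pDC (Irf8), and 0 in cDC2 of either library. At 10%, 4 were kept in B16 monocytes and macrophages (Cadm1, Irf8, Batf3 and Naaa) and 1 in those of LLC (Cadm1). With cells thinned to 2000 UMIs, 1 of 3 judged genes was kept in LLC pDC (Irf8) and 1 of 6 in LLC monocytes and macrophages (Cadm1, which met the rule because thinned LLC cDC1 had 0 Cadm1 UMIs). Against the CITE-seq LLC library, in the monocyte and macrophage table, 4 of 7 genes were called in monocytes and macrophages. Cells outside cDC1 with several genes went from 1080 to 32 in B16 and from 297 to 3 in LLC on thinning, and to 1821 and 1541 at 3 genes. Tlr3 in cDC1, at 0.863 in B16 over LLC, was at 2.29 in 1 thinned draw, where LLC Cadm1 had 0 UMIs; that thinning, the restriction to the 114 cells named cDC1 in both annotations and the alternatives for TAM-3 were chosen after seeing the data. A floor of 3 counts is 6.71 CPM in the 35 LLC cDC1 and 24.3 CPM in the 21 LLC pDC, which cell number and depth set together.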

Other observations

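The cluster the authors named Tregs-2 had 9 macrophage markers summing to 7901 CPM and 5 T cell markers to 2063 in B16, and 7169 and 1357 in LLC, so macrophage markers go against that name. Its levels in B16 included Naaa at 219 CPM, Irf8 at 214, Batf3 at 43.8, Cadm1 at 41.5 and Itgae at 31.5. Doublet scores in the top 6% of the library were found for 54.5% of its 165 cells in B16 and 70.2% of its 47 in LLC, and the annotation of B16 alone named 37 of the B16 cells cDC2. The part of macrophage RNA in these levels was not tested. In Tregs-1, Naaa was at 12.95 CPM, Batf3 at 6.62 and Itgae at 106 in B16. B cells had Wdfy4 at 76.9 CPM in B16 and 78.8 in LLC and Irf8 at 321 and 293, the ratio between tumours being 0.976 [0.583-1.69] for Wdfy4 and 1.097 [0.846-1.44] for Irf8.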
